A study of Mus musculus with 2 samples.

Results

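The collagen chain genes are described here in single-cell RNA profiles of embryonic mouse skin. They were taken as every gene whose symbol is Col, a number, a lower-case a and a number, which gave 44 of the 32285 genes in the count matrices. By the structure of the encoded protein, 11 are fibrillar chains, 8 are basement membrane chains, 9 are fibril-associated chains and 16 are chains of other kinds. The skin was taken from the flank of E14.5 mouse embryos, an age at which hair follicles begin to form. The 1 mutant library came from embryos labelled Wntless mutant, and the 1 wildtype library came from their littermates. Wntless (Wls) is the carrier that brings Wnt ligands to the cell surface. Mice with a K14Cre transgene, whose keratin promoter acts in the epidermis and not in the dermis, were crossed with Wntless fl/fl mice to remove it. The alleles that the wildtype embryos carried are not given in the sources used here. Each library pooled 2 to 3 embryos, so differences between embryos cannot be seen. With 1 library per genotype nothing could be set against replicates and no test was made; the intervals are 95% and speak of counting error alone.

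A collagen molecule is a triple helix of 3 chains, which can be products of 1 gene or of several. The helix needs a glycine in each triplet of residues, because no other residue is small enough for the centre of the helix. In the dermis, fibroblasts lay down fibrils of collagens I, III and V, and collagens XII, XIV and XVI sit on the surface of such fibrils. Type IV collagen forms the sheet of basement membranes, under the epidermis and around vessels, nerves and muscle fibres. Type VII collagen builds the anchoring fibrils that tie the epidermal basement membrane to the dermis, and type XVII is a membrane protein of the hemidesmosomes of basal keratinocytes.

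Coding sequence shows how the classes differ. In the reference transcripts, the longest unbroken run of glycine-X-Y triplets was 216 to 344 triplets in the 11 fibrillar chains, with a median of 338. It was 30 to 66 triplets in the 8 basement membrane chains, 32 to 113 in the 9 fibril-associated chains and 23 to 87 in the 16 other chains. The stretches below are 24 codons each from the GENCODE release M21 transcripts on GRCm38, 5′ to 3′ on the coding strand, with the glycine codon that opens each triplet in capitals. The Col1a1 stretch, codons 168 to 191 on chromosome 11, opens a run of 338 triplets. The others cross the end of their gene's longest run: Col4a1 codons 148 to 171 on chromosome 8, Col14a1 codons 1598 to 1621 on chromosome 15, Col7a1 codons 2728 to 2751 on chromosome 9 and Col17a1 codons 801 to 824 on chromosome 19.
Col1a1: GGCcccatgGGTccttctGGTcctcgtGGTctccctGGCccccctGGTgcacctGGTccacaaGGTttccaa
Col4a1: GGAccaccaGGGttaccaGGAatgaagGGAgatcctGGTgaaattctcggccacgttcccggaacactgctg
Col14a1: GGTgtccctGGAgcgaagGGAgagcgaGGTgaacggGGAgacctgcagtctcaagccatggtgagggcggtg
Col7a1: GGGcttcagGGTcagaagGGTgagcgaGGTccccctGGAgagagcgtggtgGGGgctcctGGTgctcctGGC
Col17a1: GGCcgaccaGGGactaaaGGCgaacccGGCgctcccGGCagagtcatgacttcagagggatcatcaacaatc
The Col1a1 stretch keeps its triplets throughout, whereas the Col4a1, Col14a1 and Col17a1 stretches leave them and do not return within the 24 codons. The Col7a1 stretch breaks off and then takes up the triplets again. Such a break need not end the helix: over the whole coding sequence Col4a1 has 22 runs of 6 or more triplets, Col7a1 18, Col17a1 7 and Col14a1 4.

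The mutant library held 10449 barcodes and 159841679 UMIs (unique molecules counted), against 9065 barcodes and 112593376 UMIs in the wildtype library. The authors' dermal barcode lists held 5028 mutant cells, with a median of 15566 UMIs, and 5300 wildtype cells, with a median of 11154 UMIs. Of all barcodes 19 occurred in both libraries, 4 of them on both dermal lists. Wls stood at 7.64 CPM (counts scaled to a fixed class total of 1000000 UMIs) in mutant epidermis and 118 CPM in wildtype epidermis, and at 76.97 and 91.85 CPM in mutant and wildtype dermis. All 7 dermal fibroblast markers had UMIs in the listed cells, at a summed 5834 CPM in mutant cells and 5102 CPM in wildtype cells. The 7 erythroid markers summed to 1269 CPM in mutant and 518.8 CPM in wildtype dermal cells, and their part in the results was not tested.

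In the dermis, collagen chains made up a larger share of the RNA in the mutant library. They gave 1653634 UMIs or 2.04% of the dermal total in the mutant, against 911212 UMIs or 1.45% in the wildtype library, a ratio of 1.41. The median cell had 1.95% collagen UMIs in the mutant library (25th to 75th percentile 1.55 to 2.42%) and 1.31% in the wildtype library (0.954 to 1.80%). Fewer cells of a low-collagen type and more collagen RNA per cell cannot be told apart in such sums. All 44 chains had a UMI in the dermis, and 40 had the 20 UMIs over both libraries at which a chain counts as measured. Of these 40, 19 were at least 1.5-fold higher in the mutant, 2 were at least 1.5-fold lower and 19 lay between, and the median log2 ratio, mutant over wildtype, was 0.57. Over all 15609 measured genes, 10.9% were higher and 5.64% lower by the same rule, and their median was 0.03. The 4 unmeasured chains were Col4a3, Col6a4, Col10a1 and Col28a1, with 4 to 14 UMIs in all.

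**Figure D1:**
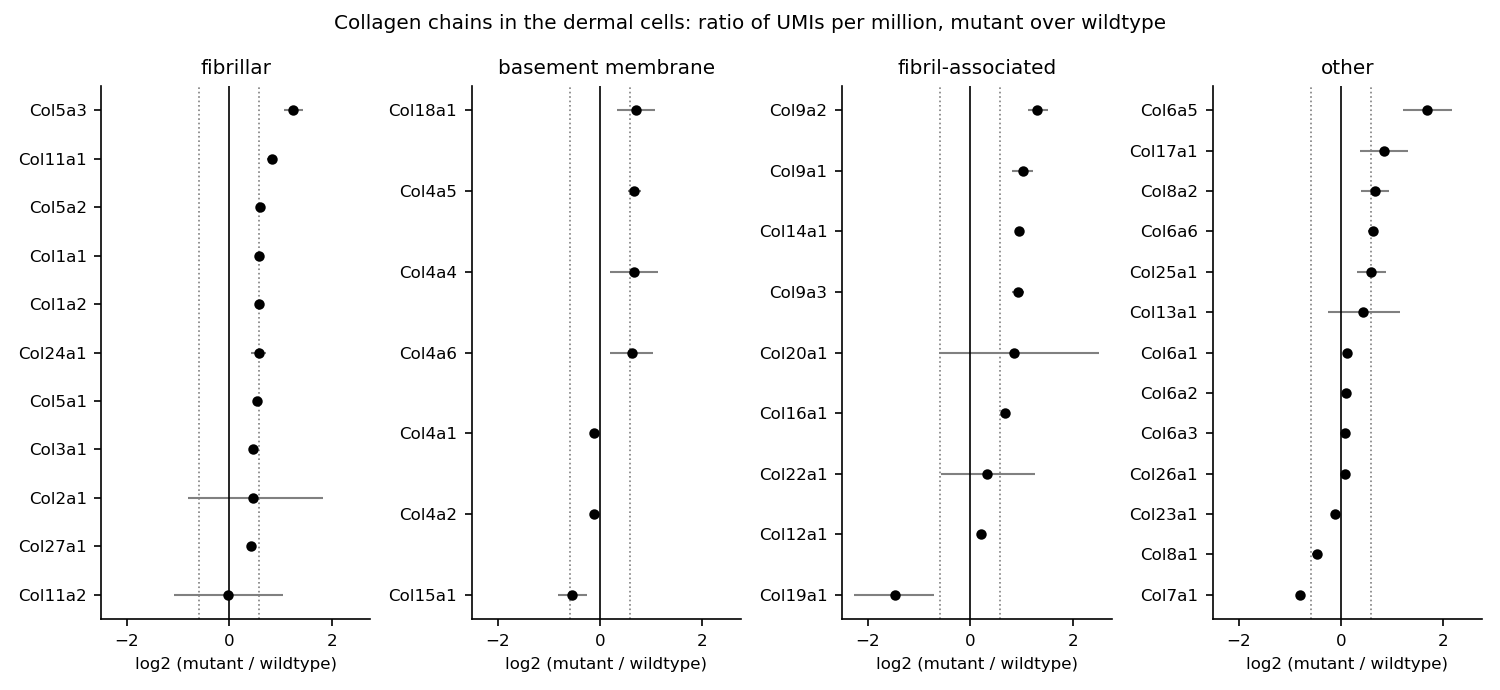
Log2 ratio of CPM, mutant over wildtype, for the 40 measured collagen chains in dermal cells, by collagen class. Points are ratios, bars are exact binomial intervals for counting error, and dotted lines mark 1.5-fold; most points lie right of 0, with Col4a1, Col4a2 and the Col6a1 to Col6a3 chains near it and Col7a1 and Col19a1 past the left line.

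The major fibrillar chains all leaned to the mutant dermis, by 1.386 to 1.514-fold, so they lie on both sides of the 1.5-fold line. Col1a1 (ENSMUSG00000001506, chromosome 11, 94936224 to 94953042, plus strand), the alpha 1 chain of type I collagen, stood at 4728 CPM in mutant cells and 3143 CPM in wildtype cells, a log2 ratio of 0.59 (0.58 to 0.60). Its partner Col1a2 stood at 5852 and 3929 CPM, at 0.57 (0.57 to 0.58). Col3a1, the type III chain that forms mixed fibrils with type I, stood at 5827 CPM in mutant cells and 4205 CPM in wildtype cells, at 0.47. Col1a1 passed the 1.5-fold rule at 1.504 and Col1a2 missed it at 1.489, and Col1a1 also missed it with median-of-ratios scaling, at a log2 ratio of 0.56. Col5a1 and Col5a2 encode the type V chains that start fibrils and hold their width down. Col5a2 stood at 592.9 CPM in mutant cells and 391.5 CPM in wildtype cells (0.60), and Col5a1 at 485.4 and 333.9 CPM (0.54).

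Col5a3 and Col11a1, minor chains of types V and XI, had larger ratios. Col5a3, a rarer type V chain, stood at 12.08 CPM in mutant cells and 5.07 CPM in wildtype cells, a log2 ratio of 1.25 (1.07 to 1.44). Col11a1, best known as a cartilage fibril chain, stood at 36.75 and 20.58 CPM, at 0.84 (0.74 to 0.93). In all, 4 of the 11 fibrillar chains were higher, 0 were lower, and the class median was 0.57. Col24a1 and Col27a1, a fibrillar subgroup of their own, had log2 ratios of 0.57 and 0.43. Col2a1, the main chain of cartilage, had 16 UMIs in the mutant and 9 in the wildtype library, and its partner Col11a2 had 19 and 15.

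The fibril-associated chains had the highest class median, 0.85, with 6 of 9 higher and 1 lower. Col14a1 (chromosome 15, 55307750 to 55520803, plus strand), which regulates early fibril growth, stood at 448.0 CPM in mutant cells and 232.5 CPM in wildtype cells. Its log2 ratio was 0.95 (0.92 to 0.97). The 3 type IX genes, whose product decorates cartilage fibrils, were all higher: Col9a2 stood at 11.26 CPM in mutant cells and 4.53 CPM in wildtype cells (1.31), Col9a1 at 8.23 and 4.06 CPM (1.02), and Col9a3 at 26.13 and 13.76 CPM (0.93). Col16a1 stood at 89.59 CPM in mutant cells and 56.00 CPM in wildtype cells, at 0.68. Col12a1, the other large fibril-surface chain of skin, was nearer to parity at 207.1 and 179.3 CPM (0.21). Col20a1 counted as higher on 14 mutant and 6 wildtype UMIs, with an interval from -0.62 to 2.52, and Col22a1 had 29 and 18 UMIs. Col19a1 was the lower one, with 22 UMIs in the mutant and 47 in the wildtype library (-1.46, -2.27 to -0.70).

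The basement membrane chains split by gene. Col4a1 and Col4a2, which make the type IV network of most basement membranes, did not pass the rule in the dermis. Col4a1 stood at 159.8 CPM in mutant cells and 171.8 CPM in wildtype cells, a log2 ratio of -0.10 (-0.14 to -0.07), and Col4a2 at 71.52 and 77.83 CPM, at -0.12 (-0.18 to -0.07). Col4a5, an X-linked chain of the skin's second type IV network, was higher, at 18.39 CPM in mutant cells and 11.55 CPM in wildtype cells (0.67, 0.54 to 0.80). Its neighbour Col4a6 stood at 1.81 and 1.18 CPM (0.62). Col4a4 and Col18a1 were also higher, on 119 against 58 UMIs and 190 against 90 UMIs, so 4 of the 7 measured chains passed the rule. Col15a1, the close relative of Col18a1, leaned the other way, at 2.43 CPM in mutant cells and 3.53 CPM in wildtype cells (-0.54, -0.83 to -0.26). The class as summed UMIs, most of them from Col4a1 and Col4a2, had a log2 ratio of -0.06.

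Among the other chains, type VI collagen was close to parity and type VII was lower. Col6a1, Col6a2 and Col6a3 build the beaded microfibrils that surround cells, and Col6a1 stood at 581.6 CPM in mutant cells and 533.4 CPM in wildtype cells (0.12). Col6a2 stood at 472.3 and 439.9 CPM (0.10) and Col6a3 at 353.2 and 333.0 CPM (0.09). The alternative type VI chains differed from these 3: Col6a5 stood at 2.45 CPM in mutant cells and 0.763 CPM in wildtype cells (1.68, 1.22 to 2.17) and Col6a6 at 29.50 and 19.16 CPM (0.62). Col7a1 (ENSMUSG00000025650, chromosome 9, 108953586 to 108984875, plus strand) stood at 58.38 CPM in mutant cells and 101.6 CPM in wildtype cells. Its log2 ratio was -0.80 (-0.85 to -0.75). Col26a1 stood at 162.1 and 153.3 CPM (0.08), Col23a1 at 41.18 and 44.47 CPM (-0.11), and the short-chain gene Col8a1 at 25.19 and 34.96 CPM (-0.47). Col8a2, Col17a1 and Col25a1 were higher on 182 to 527 UMIs, and the membrane chain Col13a1 had a log2 ratio of 0.44 on 49 and 28 UMIs.

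The dermal lists held different mixtures of cells in the 2 libraries, so the chains were also followed within subsets set by markers. Each cell was thinned to 9000 UMIs, which left 4661 mutant and 4000 wildtype cells and dropped 367 and 1300 shallower ones. Condensate cells, of the dermal cluster under a forming follicle, were those with at least 3 of 8 condensate genes. They numbered 0 in the mutant and 162 (4.05%) in the wildtype library. By counting error alone, 0 cells allow a share of up to 0.0791%. Exactly 2 of the 8 genes were seen in 44 mutant and 151 wildtype cells, and 52 of the 162 condensate cells had exactly 3. Wnt-active cells, with at least 3 of 8 Wnt target or pathway genes, were 676 of the mutant and 1690 (42.25%) of the wildtype cells. Cells leaning to upper dermal markers by 2 or more genes were 1699 (36.45%) and 961 (24.02%), and cells leaning to lower dermal markers were 593 (12.72%) and 222 (5.55%). The remaining intermediate cells were 1693 (36.32%) in the mutant and 965 (24.12%) in the wildtype library. These are ranges of marker counts: 482 of the mutant and 656 of the wildtype Wnt-active cells sat exactly at 3 genes. The Wnt-active cells of the libraries were thus not matched in Wnt level, with 461.7 CPM of the 8 genes in mutant and 786.5 CPM in wildtype ones.

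**Figure D2:**
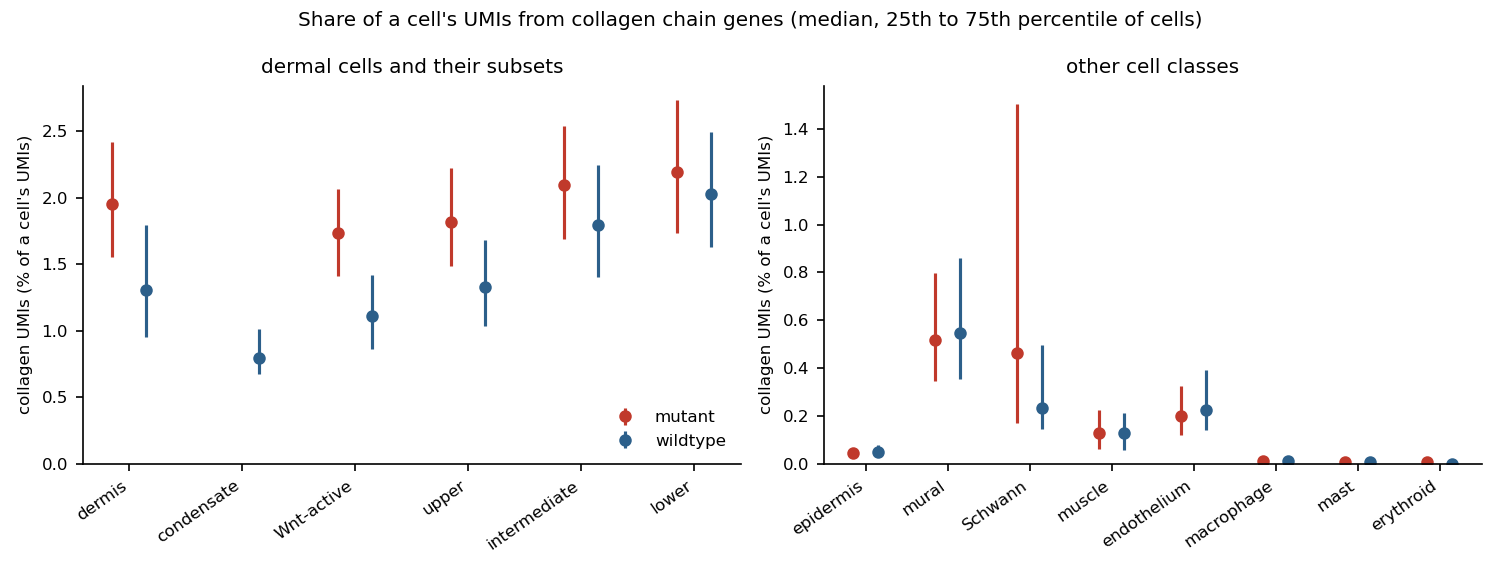
Percent of each cell's UMIs that come from collagen chain genes, in dermal subsets (left) and other cell classes (right), mutant left of wildtype; points are medians over cells and bars run from the 25th to the 75th percentile. The dermal medians lie between 0.798 and 2.20%, lowest in wildtype condensate cells, and the epidermal medians are 0.0448 and 0.0467%.

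Wildtype condensate cells were lower in the type I chains and higher in Col4a1, Col4a2, Col7a1 and Col23a1 than wildtype Wnt-active cells. The classes did not move as a whole: fibrillar Col11a1 was higher, at 8.89 and 3.66 CPM on 17 condensate UMIs, Col5a2 stood at 278.2 and 293.3 CPM, and basement membrane Col4a5 was lower, at 5.23 and 11.85 CPM. Against the wildtype Wnt-active cells, 9 of 29 measured chains were at least 1.5-fold higher, 9 lower and 11 between, where 17.9% of all measured genes were higher and 19.3% lower. Col1a1 stood at 957.6 CPM in condensate and 2416 CPM in Wnt-active cells, and Col1a2 at 1249 and 3077 CPM. Col4a1 stood at 543.9 and 156.7 CPM (log2 ratio condensate over Wnt-active 1.80, 1.70 to 1.90), and Col4a2 at 222.8 and 68.51 CPM. Col23a1, a transmembrane collagen, stood at 258.9 CPM in condensate and 30.86 CPM in Wnt-active cells (3.07, 2.90 to 3.24). Col7a1 stood at 350.4 and 149.5 CPM (1.23). Col25a1 at 14.6 against 0.828 CPM, Col19a1 at 14.1 against 0.349 CPM and Col15a1 at 20.4 against 4.01 CPM were also higher, on 28, 27 and 39 condensate UMIs. Of the 47 wildtype UMIs of Col19a1 in the dermis, 27 were in these 162 cells.

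The upper and lower cells differed in which chains they carried. In lower over upper cells, 15 of 35 measured chains were higher and 7 lower in the mutant, against 15 of 30 higher and 5 lower in the wildtype library. Of all genes, 20.4% were higher and 15.4% lower in the mutant, against 17.9% and 15.7% in the wildtype library. Col14a1 stood at 850.1 CPM in lower and 274.5 CPM in upper mutant cells, and at 701.1 and 139.8 CPM in wildtype cells. Col5a3 stood at 51.38 CPM in lower and 1.07 CPM in upper mutant cells, and at 30.10 and 1.65 CPM in wildtype cells. Col11a1 stood at 107.9 and 7.66 CPM in mutant and at 92.20 and 7.86 CPM in wildtype cells, and Col6a6 at 102.6 and 4.36 CPM and at 76.01 and 6.81 CPM. Col7a1 ran the other way, with 4.35 CPM in lower and 85.98 CPM in upper mutant cells, and 4.89 and 77.66 CPM in wildtype cells.

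The type IX genes did not share 1 pattern. Col9a1 and Col9a3 were upper chains: Col9a3 stood at 4.77 CPM in lower and 33.44 CPM in upper mutant cells, and Col9a1 at 0.518 and 11.96 CPM. Col9a2 was a lower chain, at 30.66 CPM in lower and 3.37 CPM in upper mutant cells, and at 18.44 and 1.20 CPM in wildtype cells.

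**Figure D3:**
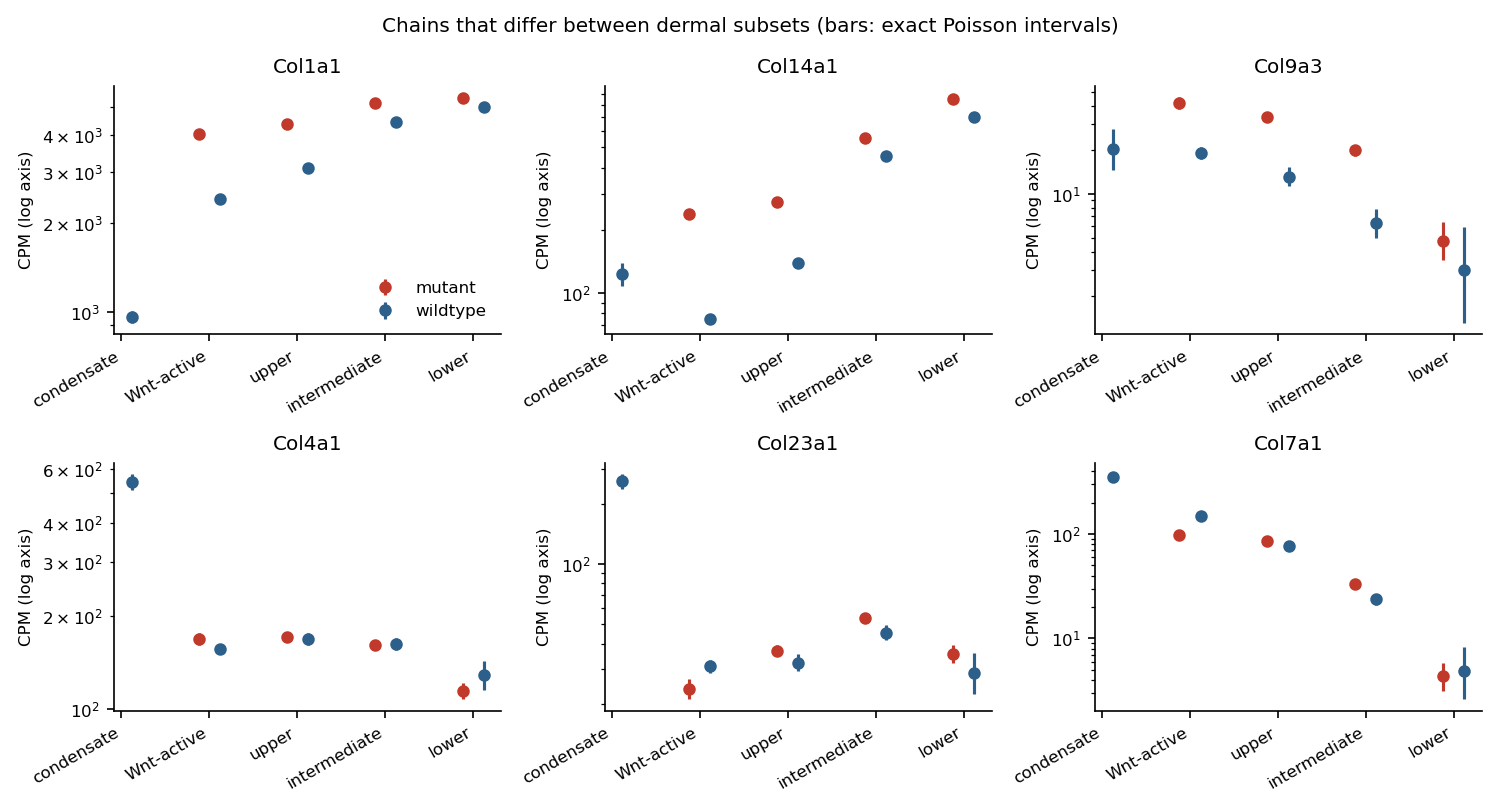
CPM (log axis) of 6 chains in the dermal subsets, mutant left of wildtype, with exact Poisson intervals; no mutant cell met the condensate rule. Col14a1 and Col1a1 climb towards the lower cells, Col7a1 and Col9a3 fall towards them, and Col4a1 and Col23a1 peak in wildtype condensate cells at 543.9 and 258.9 CPM.

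Within subsets, collagen was again a larger share of UMIs in mutant cells, least so in the lower cells. In Wnt-active cells it was 1.81% in the mutant and 1.19% in the wildtype library (log2 ratio 0.60), and in upper cells 1.91 and 1.41% (0.43). In intermediate cells it was 2.16% in the mutant and 1.88% in the wildtype library (0.21), and in lower cells 2.28 and 2.09% (0.13). Of the measured chains, 11 of 32 were higher and 4 lower in mutant Wnt-active cells, where 8.26% of all genes were higher and 6.94% lower. In upper cells 8 of 33 were higher and 3 lower (9.01 and 4.96% of all genes), in intermediate cells 8 of 35 and 0 (8.03 and 3.17%), and in lower cells 8 of 31 and 0 (9.55 and 4.32%). With the same weight for each subset in both libraries and no condensate cells, 9 dermal chains were higher, not 19, and 0 were lower. The share of all genes is not given for this weighting. The 7 erythroid markers (6 or 7 with UMIs) summed to 811.7 to 3455 CPM in the 4 mutant subsets, highest in lower cells, and to 142.6 to 810.3 CPM in the wildtype ones, and their part was not tested. The marker rule also mattered, in an alternative that asked 2 genes in place of 3 of both Wnt-active and condensate cells. Wnt-active cells then had 17 chains higher and 0 lower, and the share of all genes is not given.

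The chains higher in mutant cells within a subset were in part the same from subset to subset. Type IX chains stood out among them: Col9a3 stood at 41.88 CPM in mutant cells and 19.00 CPM in wildtype cells among the Wnt-active (1.14), at 33.44 and 13.09 CPM among the upper (1.35) and at 19.84 and 6.29 CPM among the intermediate (1.66). Col9a1 had log2 ratios of 1.19, 1.71 and 1.32 in those 3 subsets. Col9a2 had 1.49 in upper, 0.93 in intermediate and 0.73 in lower cells, and Col16a1 had 0.87 in Wnt-active and 0.61 in upper cells. In Wnt-active cells Col5a2 stood at 491.3 and 293.3 CPM (0.74), Col1a2 at 5310 and 3077 CPM (0.79) and Col24a1 at 8.86 and 4.75 CPM (0.90). The type VI chains Col6a5 and Col6a6 both leaned to the mutant in lower cells. Col6a5 stood at 9.74 CPM in mutant cells and 3.01 CPM in wildtype cells among the lower (1.69) and at 3.16 and 1.73 CPM among the intermediate (0.87). The lower mutant cells had 94 UMIs of it, and the wildtype values rest on few, with 48 in the whole wildtype dermis. Col6a6 was lower in mutant Wnt-active cells, at 3.74 and 7.37 CPM (-0.98), and in upper cells, at 4.36 and 6.81 CPM (-0.64), and had 0.43 in lower cells. Col5a3 stood at 51.38 and 30.10 CPM in lower cells (0.77), and Col25a1, a membrane collagen, at 5.20 and 2.44 CPM in intermediate cells (1.09).

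Col1a1 and Col14a1 differed most in Wnt-active cells. The 8 Wnt-active genes themselves summed to 461.7 CPM in mutant and 786.5 CPM in wildtype cells of that subset, and their part in the difference was not tested. Col1a1 stood at 4040 CPM in mutant and 2416 CPM in wildtype Wnt-active cells (0.74), and at 5339 and 4984 CPM in lower cells. Col14a1 stood at 240.3 and 75.49 CPM in Wnt-active cells (1.67), and at 850.1 and 701.1 CPM in lower cells. With subsets weighted alike, the dermal log2 ratio of Col1a1 was 0.40 and that of Col14a1 0.58. Col5a3, Col11a1 and Col6a6, whose CPM was highest in lower cells, then had 0.52, 0.29 and 0.14. Col4a5 differed from both: its level was 17.51 to 19.10 CPM in the 4 mutant subsets and 11.29 to 12.59 CPM in the same wildtype subsets, past 1.5-fold in each.

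Col7a1 differed in direction between subsets. It stood at 97.75 CPM in mutant and 149.5 CPM in wildtype Wnt-active cells (-0.61, -0.71 to -0.52), but at 85.98 and 77.66 CPM in upper cells and 33.42 and 23.68 CPM in intermediate cells. With subsets weighted alike and without condensate cells its dermal log2 ratio was -0.20, in place of -0.80. Without condensate cells alone it was -0.66.

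The same cells, without the condensate cells, were then placed on a scale of upper minus lower marker genes, from -4 or less to 3 or more. At -3 the collagen share was 2.35% in 177 mutant cells and 2.14% in 53 wildtype cells. At 0 it was 2.23% in 588 mutant and 1.85% in 374 wildtype cells, and at 3 or more 1.84% in 1251 mutant and 1.21% in 1646 wildtype cells. The share thus fell from the lower to the upper end in both libraries, and by more in the wildtype library. At the lowest step, -4 or less, the wildtype value was the higher one, 2.35% in 25 cells against 2.23% in 80 mutant cells. Col1a1, Col9a3 and Col14a1 had higher values in mutant cells at each step from -3 upwards. At 3 or more, Col9a3 stood at 33.16 CPM in mutant and 17.77 CPM in wildtype cells, while at -3 Col14a1 was level, at 847.6 and 846.8 CPM.

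**Figure D4:**
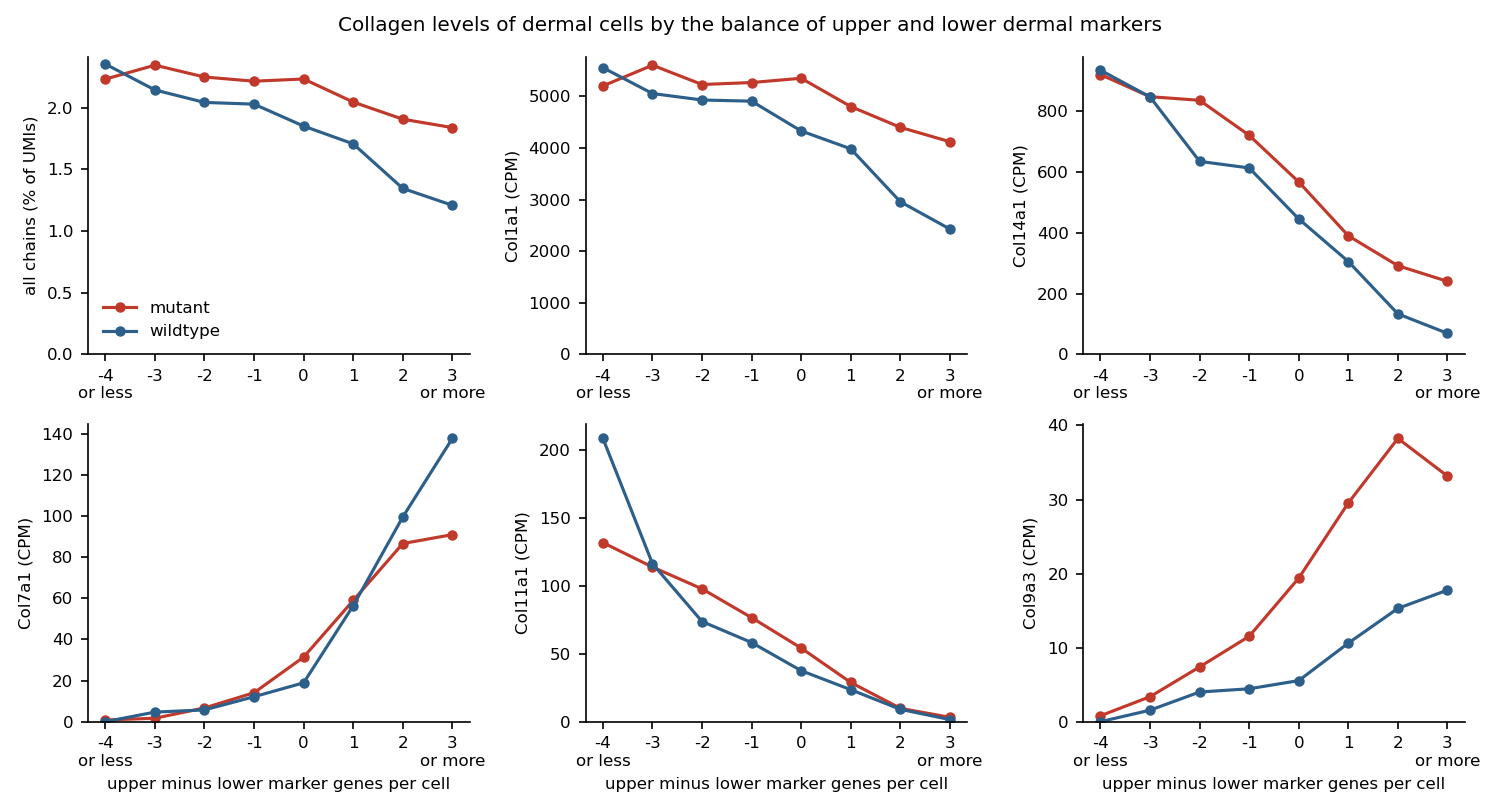
Collagen share and the CPM of 5 chains in dermal cells by upper minus lower marker genes per cell, mutant and wildtype, without condensate cells. All axes start at 0. Total collagen, Col1a1, Col14a1 and Col11a1 decline to the right and Col7a1 and Col9a3 climb, and the 2 lines of Col1a1 and total collagen part most at 2 and at 3 or more.

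Clusters made without the collagen genes gave a further view, for the 4 that held at least 200 listed dermal cells of each library. These clusters bear no cell type name, since none had 3 dermal fibroblast markers among its leading genes. In cluster 3, led by Mfap5, the collagen share was 2.26% in 990 mutant and 2.30% in 625 wildtype cells (log2 ratio -0.02). In cluster 2, led by Aspn, it was 2.22% in 820 mutant and 1.88% in 865 wildtype cells (0.24). In cluster 1, led by histone genes, it was 1.84% in 678 mutant and 1.26% in 1135 wildtype cells (0.55), and in cluster 10, led by Cdkn3 and Cenpf, 1.70% in 348 and 1.21% in 551 cells (0.49). In cluster 1, 11 of 30 measured chains were higher and 1 lower (7.68 and 6.36% of all genes). In cluster 10 these were 6 and 1 of 25 (6.72 and 6.27%), in cluster 2 they were 7 and 0 of 31 (7.4 and 5%), and in cluster 3 they were 6 and 2 of 35 (7.2 and 3.65%). The other large dermal clusters held nearly all their cells in 1 library: cluster 0 had 2027 mutant and 92 wildtype listed cells, and cluster 4 had 28 mutant and 1640 wildtype ones.

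Outside the dermis, fibrillar chains were often no higher than in blood-derived cells, which should lack them. Macrophages, mast cells and erythroid cells were used to set that level. Col1a1 stood at 303.5 CPM in mutant and 454.6 CPM in wildtype macrophages, at 204.1 and 152.6 CPM in mast cells, and at 199.3 and 90.52 CPM in erythroid cells. The median macrophage had 0.0103% collagen UMIs in the mutant and 0.00984% in the wildtype library, at median depths of 24370 and 15896 UMIs, with single cells reaching 3.16 and 1.96%. A chain was taken as above this level where it had at least 10 UMIs in each library and at least 3 times the highest CPM of those 3 classes. That held for 5 chains in the epidermis, 17 in mural cells, 17 in Schwann cells, 9 in muscle cells and 4 in endothelium, of 44 in each. The share of all genes that pass this rule is not given, so these counts have no background beside them. Nor can they be compared between classes, since 10 UMIs are harder to reach in a small class. Wildtype endothelium had 1169851 UMIs and wildtype muscle 9266257.

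In the epidermis, the 5 chains above that level were the hemidesmosome chain Col17a1, the basement membrane chains Col18a1, Col4a5 and Col4a6, and the fibrillar chain Col27a1. They are given for 173 mutant cells (median 23427 UMIs) and 567 wildtype cells (median 15127 UMIs), which had UMIs of all 10 epidermal markers. Col17a1 (chromosome 19, 47646344 to 47692094, minus strand) stood at 42.16 CPM in mutant cells and 53.40 CPM in wildtype cells, and at 0 UMIs in erythroid cells of both. Col18a1, the basement membrane chain from which endostatin is cut, stood at 67.40 and 69.53 CPM (-0.04, -0.25 to 0.16). Col4a5 stood at 33.82 CPM in mutant cells and 15.41 CPM in wildtype cells (1.13, 0.79 to 1.47), and Col4a6 at 10.65 and 4.06 CPM (1.39, 0.74 to 2.05). Both were thus higher in mutant epidermis. A UMI of Col4a5 was seen in 46.24% of mutant and 21.34% of wildtype cells, but these shares are not matched for depth, which was greater in the mutant cells. Col27a1 stood at 12.28 and 17.38 CPM.

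Over all 26 measured chains of the epidermis, 5 were higher, 8 lower and 13 between, with a median of -0.31, where 7.52% of all genes were higher and 17.4% lower. The lower ones were mostly chains at the macrophage level. Class sums do not give the typical cell here. Fibrillar chains were 0.111% of all UMIs in mutant and 0.167% in wildtype epidermis, but 0.0126 and 0.0142% in the median cell. Col1a1 stood at 267.5 CPM in mutant and 570.5 CPM in wildtype epidermis, Col6a1 at 32.66 and 65.47 CPM, Col6a2 at 31.96 and 57.77 CPM, Col6a3 at 26.40 and 47.88 CPM, and Col26a1 at 9.96 and 24.57 CPM. Col7a1 stood at 8.57 CPM in mutant cells and 22.69 CPM in wildtype cells (-1.41), against 5.27 and 12.40 CPM in macrophages. The 7 dermal fibroblast markers, all with UMIs, summed to 511.9 CPM in mutant and 1132 CPM in wildtype epidermis, and their part in these differences was not tested. At a finer clustering, the cluster shared by both libraries held 165 mutant and 223 wildtype cells. There Col1a1 stood at 268.5 and 379.9 CPM, Col4a5 at 33.96 and 22.47 CPM (0.60), Col4a6 at 10.70 and 5.27 CPM (1.02) and Col7a1 at 8.61 and 22.24 CPM (-1.37). Its neighbour, led by Dkk4, Krt17 and Shh, genes of the hair placode, held 8 mutant and 294 wildtype cells. In those 294 wildtype cells Col18a1 stood at 90.76 CPM, Col17a1 at 57.85 CPM and Col4a5 at 11.06 CPM. With all epidermal clusters at that setting, the log2 ratio of Col1a1 was -0.02, in place of -1.09. At that clustering the median over the epidermal chains was 0.02 with all epidermal clusters and -0.01 in the shared one. Col8a1, Col12a1 and Col16a1 were higher in the mutant epidermis, at 18.30 and 8.12 CPM, 44.47 and 27.17 CPM, and 22.70 and 12.70 CPM, and did not reach 3 times the background in both libraries.

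Mural cells, the pericytes and smooth muscle cells of vessel walls (233 mutant and 234 wildtype), carried much type IV collagen. Col4a1 stood at 900.5 CPM in mutant cells and 767.5 CPM in wildtype cells, Col4a2 at 409.7 and 345.4 CPM, and Col25a1 at 10.25 and 10.13 CPM. Col18a1 was higher, at 31.05 and 17.92 CPM (0.79, 0.43 to 1.16). Of 28 measured chains 3 were higher and 2 lower, against 7.16 and 3.87% of all genes, and total collagen stood at 0.634% in mutant and 0.629% in wildtype cells. Col3a1 stood at 1621 and 1701 CPM, more than 3 times the macrophage level in both libraries.

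Endothelial cells (99 mutant and 65 wildtype) carried 4 chains above the background, all of the basement membrane class and none past 1.5-fold. Col18a1 stood at 384.7 CPM in mutant cells and 377.8 CPM in wildtype cells, and Col15a1, its closest relative, at 149.1 and 180.4 CPM. Col4a1 stood at 915.9 and 870.2 CPM and Col4a2 at 404.1 and 422.3 CPM. Of 15 measured chains 0 were higher and 9 lower, against 11 and 6.38% of all genes, and the 9 were chains below the 3-fold mark. Among them were Col1a1 at 197.2 CPM in mutant cells and 387.2 CPM in wildtype cells, Col1a2 at 220.2 and 501.8 CPM, Col3a1 at 194.1 and 360.7 CPM, Col5a1 at 26.03 and 51.29 CPM, Col6a1 at 29.56 and 63.26 CPM, and Col6a2 at 25.59 and 48.72 CPM. Dermal fibroblast markers (7 of 7 with UMIs) summed to 194.1 CPM in mutant and 311.2 CPM in wildtype endothelium, and their part was not tested. Fibrillar chains were 0.0682% of all UMIs in mutant and 0.137% in wildtype endothelium, but 0.0123 and 0.00712% in the median cell.

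Schwann cells, the glia of peripheral nerve (303 mutant and 251 wildtype), were the class with Col20a1. This fibril-associated chain stood at 68.58 CPM in mutant cells and 34.09 CPM in wildtype cells (1.01, 0.68 to 1.34), and at 0.173 and 0.0954 CPM in the dermis. Col18a1 stood at 243.2 and 216.9 CPM, Col15a1 at 25.13 and 30.41 CPM and Col25a1 at 13.18 and 8.69 CPM. Of 32 measured chains 13 were higher and 1 lower, against 8.61 and 4.19% of all genes. They included Col1a1 at 1388 CPM in mutant cells and 738.6 CPM in wildtype cells, Col1a2 at 1708 and 1044 CPM, Col3a1 at 1599 and 955.1 CPM, Col11a1 at 40.16 and 24.40 CPM, Col12a1 at 35.63 and 20.05 CPM, Col23a1 at 18.33 and 11.70 CPM, Col9a1 at 18.12 and 11.03 CPM and Col9a2 at 29.66 and 19.05 CPM. Of these, Col1a1, Col1a2, Col3a1, Col12a1 and Col23a1 did not reach 3 times the background in the wildtype library. Col14a1 was level, at 279.1 and 279.0 CPM.

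The Schwann class was a mixture. At finer clustering the clusters named Schwann together held more cells than this class, so they are not parts of it alone. A collagen-poor cluster had 150 mutant and 183 wildtype cells, and a collagen-rich one had 180 mutant and 97 wildtype cells. Col1a1 stood at 498.4 CPM in mutant cells and 287.5 CPM in wildtype cells in the poor cluster, and at 2120 and 1243 CPM in the rich one. Col20a1 stood at 106.2 and 47.40 CPM in the poor cluster (1.16, 0.79 to 1.55) and at 35.80 and 20.46 CPM in the rich one (0.81, 0.19 to 1.46). The dermal fibroblast markers, 7 of 7 with UMIs, summed to 890.1 CPM in mutant and 634.6 CPM in wildtype Schwann cells, and the cause of the collagen difference was not tested.

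Muscle cells (481 mutant and 520 wildtype) carried Col15a1, a chain of the muscle fibre's basement membrane zone, at 38.31 CPM in mutant cells and 33.35 CPM in wildtype cells. Col4a1 stood at 295.4 and 253.2 CPM and Col19a1 at 1.89 and 3.24 CPM, on 23 and 30 UMIs. Col18a1 was higher, at 44.71 and 26.33 CPM (0.76, 0.54 to 0.99). Of 30 measured chains 5 were higher and 6 lower, against 4.46 and 5.49% of all genes. The named ones were Col6a3 at 34.21 and 21.04 CPM and Col14a1 at 22.48 and 13.17 CPM on the higher side, and Col4a5 at 5.42 and 8.74 CPM and Col7a1 at 4.27 and 8.63 CPM on the lower side. Those 4 did not reach 3 times the background in both libraries.

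**Figure D5:**
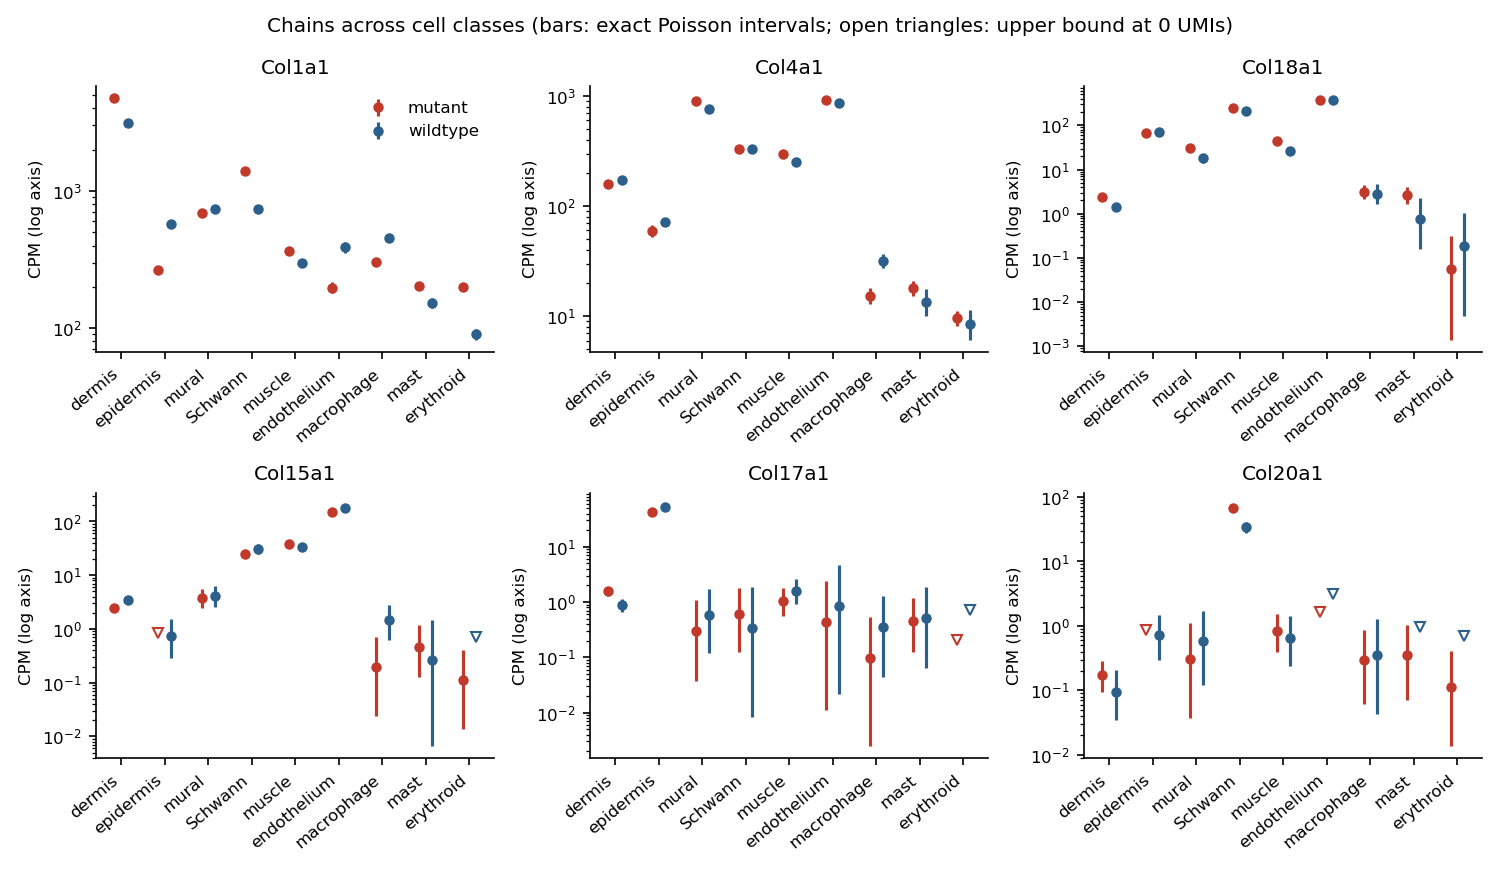
CPM (log axis) of 6 chains in 9 cell classes, mutant left of wildtype, with exact Poisson intervals and open triangles at the upper bound where no UMI was seen. Col17a1 stands out in the epidermis, Col20a1 in Schwann cells and Col15a1 in endothelium, Col18a1 is low in the dermis at 2.34 and 1.43 CPM, and Col1a1 is at 90.52 to 454.6 CPM in the macrophage, mast and erythroid classes.

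The UMI ratio of partner chains was close between the libraries for some pairs and apart for others. These UMIs are read from the 3′ end, 1 per molecule, so they were not scaled by gene length. Col4a1 and Col4a2 lie head to head on chromosome 8, with start sites 21 bases apart in the annotation (Col4a1 at 11312826 on the minus strand and Col4a2 at 11312805 on the plus strand). The ratio of Col4a1 to Col4a2 UMIs was 2.23 in mutant and 2.21 in wildtype dermis, 2.20 and 2.22 in mural cells, 2.19 and 2.29 in muscle and 2.27 and 2.06 in endothelium. In Schwann cells it was 1.58 in the mutant and 1.38 in the wildtype library. Col1a1 to Col1a2 stood at 0.81 and 0.80 in the dermis and at 0.64 and 0.67 in mural cells. Col3a1 to Col1a1 stood at 1.23 and 1.34 in the dermis, and at 2.58 in wildtype condensate cells. Col6a1 to Col6a3 stood at 1.65 in mutant and 1.60 in wildtype dermis and at 0.52 and 0.74 in mural cells, and at 2.14 and 3.48 in muscle. Col8a1 to Col8a2, the type VIII pair, stood at 5.78 in mutant and 12.71 in wildtype dermis, but its direction differed between subsets. It was 80.43 in mutant and 49.36 in wildtype Wnt-active cells, and 25.16 and 14.09 in upper cells, on 7 to 37 Col8a2 UMIs. In intermediate cells it was 2.31 in the mutant and 3.32 in the wildtype library, and in lower cells 0.72 and 1.06. In the epidermis Col1a1 to Col1a2 stood at 0.75 in the mutant and 1.20 in the wildtype library, and Col3a1 to Col1a1 at 1.34 and 0.85. Col1a1, Col1a2 and Col3a1 did not reach 3 times the background in the epidermis, nor did Col6a1 and Col6a3 in muscle. The same held for Col1a1 and Col1a2 in mural cells. Ratios of these chains in those classes may therefore not describe the cells named.

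The genes that make and receive collagen gave a smaller shift in the dermis. Of 31 genes for modifying, folding, cutting and crosslinking enzymes and chaperones, 6 were higher, 1 lower and 24 between, with a median log2 ratio of 0.34, against 10.9 and 5.64% of all genes. Lox, which starts collagen crosslinks, stood at 282.3 CPM in mutant cells and 156.4 CPM in wildtype cells (0.85). Loxl4, of the same family, stood at 1.26 and 2.43 CPM (-0.95). The chaperone gene Serpinh1 stood at 1551 and 1336 CPM, within 1.5-fold. Of 7 measured collagen receptors 2 were higher and 0 lower, with a median of 0.33. Both were integrin alpha subunits: Itga10 stood at 1.26 CPM in mutant cells and 0.525 CPM in wildtype cells (1.26), and Itga11 at 11.43 and 6.44 CPM (0.83).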

How the data were processed

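Trypsin-dissociated, DAPI-stained and sorted skin cells went into the 10x 3′ assay (v3.1 chemistry), both libraries in parallel and on the same lane per the labels' protocols. The deposited matrices hold UMI counts per gene and barcode, which per the file headers come from Cell Ranger 6.1.2. The submitters' processing notes name build mm10 and Seurat. The authors also deposited dermal barcode lists, and how they were chosen is not stated in the sources used here.

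UMIs were summed per class and library and divided by the class total (CPM), with exact Poisson intervals. Ratios have exact conditional binomial intervals. Simulated counts with counting error alone checked their calculation, and held no variation between cells or embryos. A chain counted as measured with 20 or more UMIs over both libraries and as higher or lower past 1.5-fold, and a chain at 0 was set against 3 counts. Intervals cover counting error only, and cells are not replicates. The named chains are the 10 with most dermal UMIs, those past 1.5-fold with 100 or more UMIs, and in each other class the 4 highest relative to the dermis, with others beside their partners. The members, lists and tests were chosen with earlier results of these data known.

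Classes came from clustering all barcodes without collagen genes in scanpy 1.11.5: 2000 variable genes, 30 components, 15 neighbours, Leiden resolution 0.5 (leidenalg 0.10.2), and no batch correction. A name needed 3 markers among 50 leading genes. Barcodes on the dermal lists were left out of the other classes. Scrublet called 159 mutant and 225 wildtype doublets; none were removed in the values given, and an alternative left out the top 8% of scores. The background rule (3 times the macrophage, mast or erythroid level) was chosen after the data were seen. Gene positions and coding sequence came from GENCODE M21 (GRCm38), which held all 44 genes. Python 3.11.15, numpy 2.4.6, scipy 1.17.1 and pandas 2.3.3 were used.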

Additional observations from a re-analysis of the deposited data

Results flagged for a closer look

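Col1a1, in 2 classes, and Col4a5, in 1, passed 1.5-fold, mutant over wildtype, in opposite directions in the dermis and in another class. This counts chains with 100 or more UMIs over both libraries, in epidermal, mural, Schwann, muscle and endothelial cells. None of these differences was tested, since there is 1 library per genotype. Other chains also had opposite signs without meeting these limits. Among them, Col1a2 stood at 5852 CPM in mutant and 3929 CPM in wildtype dermis, within 1.5-fold, and at 220.2 and 501.8 CPM in endothelium. For Col1a1 the epidermal ratio minus the dermal ratio was -1.68, from -1.09 and 0.59, and at Leiden resolution 1.0 the epidermal ratio itself was -0.02; the endothelial ratio minus the dermal ratio was -1.56. In both classes Col1a1 was near or below its level in macrophages, at 267.5 CPM in mutant and 570.5 CPM in wildtype epidermis and 197.2 and 387.2 CPM in endothelium, against 303.5 and 454.6 CPM in macrophages. For Col4a5 the muscle ratio minus the dermal ratio was -1.36, on 66 mutant and 81 wildtype muscle UMIs.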

How the results depend on the processing

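With 1 library per genotype, no replicate could be left out, and no paired analysis was possible because each genotype has 1 library. The count of 19 higher dermal chains was 9 with subsets weighted alike and no condensate cells, and the count of 2 lower ones was 0 there and 1 without condensate cells alone. The 5 higher epidermal chains were 3 in the shared epidermal cluster, an alternative chosen after seeing the data, and the 8 lower ones were 3 there, 4 at Leiden resolution 1.0 and 13 in cells with at most 1% collagen UMIs. The epidermal median of -0.31 turned to 0.019 at resolution 1.0. With 2 marker genes for both Wnt-active and condensate cells, the Wnt-active cells had 17 chains higher and 0 lower, in place of 11 and 4. With a marker difference of 1, upper cells had 1 lower chain in place of 3 and intermediate cells 1 in place of 0. Muscle had 2 higher chains in place of 5 at resolution 1.0. The cause of these changes was not tested. For these alternative settings the shares of all genes are not given, so their counts have no background beside them. The other scalings, UMI minimums, doublet and cell filters kept these counts within 1.5 times. Clusters named dermal fibroblast could not be used, since none met the naming rule. Levels below about 1 CPM rest on few UMIs in the smaller classes, and 4 chains were too rare in the dermis to compare.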
